A study of Homo sapiens with 4 samples.

Results

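The enzymes that conjugate, reduce or oxidise androgens were followed through the 4 RNA-seq libraries of LNCaP cells as 9 genes: the glucuronosyltransferases UGT2B10, UGT2B11, UGT2B15, UGT2B17 and UGT2B28, the reductases SRD5A1 and SRD5A3, and the dehydrogenases HSD17B4 and HSD17B11. They were chosen by name for this role, with earlier results of these data known. All 9 were found by Entrez Gene identifier among the 19801 genes measured. LNCaP is an established human prostate cancer line that responds to androgens. The cells were transfected for 24 h with an empty vector or with the plasmid AR1-651, a truncated construct named by residues 1 to 651 that lacks a ligand-binding domain, and were then left untreated or given Ailanthone (AIL), a plant compound, for 12 h. This gave 4 conditions, called here AR1-651 and AR1-651 + AIL on one side and empty vector and empty vector + AIL on the other. No androgen treatment is named in the labels, and all cells grew in serum-containing medium. Each condition is 1 library, so no spread between replicates could be measured, and each difference below compares libraries with no test. The transfection was transient, and the share of cells that took up a plasmid is not given.

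Glucuronosyltransferases attach a sugar acid, taken from UDP-glucuronic acid, to a hydroxyl group of a steroid, which makes it water soluble and ends its action at the receptor. Steroid 5-alpha-reductases convert testosterone to the more potent dihydrotestosterone. The HSD17B dehydrogenases are known for interconverting the active hydroxyl and the less active keto form of a steroid. In prostate cells, UGT2B15 and UGT2B17 are known as genes that androgen represses.

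The libraries carried the markers of prostate luminal cells. All 7 luminal markers listed, among them KLK3, KLK2, TMPRSS2 and FOLH1, passed an RPKM of 1 (RPKM is a read count scaled to transcript length and library size), with summed levels of 1606 to 3787 RPKM. The basal marker KRT14 was at most 0.21 RPKM, the sum of 2 leukocyte markers at most 1.07 RPKM, and the sum of 3 fibroblast markers between 2.36 and 5.52 RPKM. The liver is a main site of UGT2B expression, and its 3 markers ALB, APOA1 and SERPINA1 summed to 1.11 to 2.34 RPKM, with ALB listed at 0 in both libraries without AIL. The androgen-induced KLK3 was 287 RPKM with the empty vector and 1442 RPKM in the library labelled AR1-651. The level of the construct itself is not reported here, so every direction given below for AR1-651 rests on the labels. In bulk RNA, fewer cells of a type and less RNA per cell cannot be told apart.

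The UGT2B genes lie side by side on chromosome 4 and are close copies, which bears on how their reads can be assigned. Over the coding sequence, UGT2B15 and UGT2B17 were 96.6% identical (55 of 1593 positions differed), and UGT2B11 and UGT2B28 were 97.0% identical (47 of 1590 positions differed). UGT2B10 was 94.8% identical to UGT2B11 and 94.2% identical to UGT2B28, and identity between these 3 genes and the UGT2B15 and UGT2B17 pair was 83.7% to 85.2%. The coding stretch in which the latter pair differs most is shown because reads from it can tell them apart. It spans bases 266 to 385 of the coding sequence, counted from 1 at the start codon, in GENCODE release 29 transcripts, with the 15 differing bases in capitals.
UGT2B15: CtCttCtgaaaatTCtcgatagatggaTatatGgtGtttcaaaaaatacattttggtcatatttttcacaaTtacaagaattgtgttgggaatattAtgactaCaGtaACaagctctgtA
UGT2B17: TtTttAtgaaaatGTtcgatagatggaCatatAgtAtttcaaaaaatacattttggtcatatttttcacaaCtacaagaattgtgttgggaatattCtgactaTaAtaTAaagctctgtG
Elsewhere the pair is identical over runs of up to 199 bases. Of all 50-base windows of the transcript, 27.8% of UGT2B15 and 27.8% of UGT2B17 were found in another gene, 40.9% of UGT2B11, 35.7% of UGT2B28 and 31.7% of UGT2B10. The same share was 1.12% for SRD5A1, 0.773% for SRD5A3, 3.81% for HSD17B11 and 0% for HSD17B4. How reads in shared windows were counted is not given in the sources used here, so the single UGT2B values are uncertain. Sums over the close copies are given beside them. UGT2B15 and UGT2B17 shared most with each other (27.5% of windows), and UGT2B28 shared most with UGT2B11 (20.7%). UGT2B11 and UGT2B10 shared most with UGT2B25P (22.4%) and UGT2B27P (15.2%), which are not part of the sums. The sum of UGT2B10, UGT2B11 and UGT2B28 therefore leaves part of this uncertainty in place.

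RefSeq held a promoter for 7 of the 9 genes (not for UGT2B17 or UGT2B28). The 250 bases before the start of UGT2B15 and UGT2B11 are printed because, without AIL, the former gene was lower and the latter higher in the library labelled AR1-651 than with the empty vector. Both are on GRCh38.p14, minus strand, at chr4:68670653-68670902 and chr4:69214749-69214998, read 5′ to 3′ in the direction of the gene. The 3 motifs were searched on both strands, AGAACA (part of an androgen response element), TGTTTAC (forkhead) and GTTAAT (part of an HNF1 element), and capitals mark a match.
UGT2B15: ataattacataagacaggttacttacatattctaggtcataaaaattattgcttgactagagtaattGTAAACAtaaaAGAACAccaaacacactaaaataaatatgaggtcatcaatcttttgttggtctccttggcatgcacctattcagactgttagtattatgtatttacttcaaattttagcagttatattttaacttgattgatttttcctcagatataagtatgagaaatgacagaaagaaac
UGT2B11: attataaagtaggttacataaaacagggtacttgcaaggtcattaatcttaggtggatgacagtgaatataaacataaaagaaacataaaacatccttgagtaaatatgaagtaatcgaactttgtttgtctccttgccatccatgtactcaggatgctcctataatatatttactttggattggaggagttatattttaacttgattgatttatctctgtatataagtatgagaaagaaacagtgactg
UGT2B15 held AGAACA from 172 to 167 bases before the start, on the strand of the gene, and TGTTTAC from 183 to 177 bases before it, on the opposite strand. None of the 3 letter strings occurred in the same window of the other 6 genes. Among 35116 promoters of this length, 12.4% held AGAACA, 2.98% held TGTTTAC and 6.23% held GTTAAT. The promoter windows of UGT2B10 and UGT2B11 were 90.2% identical, whereas those of UGT2B15 and UGT2B11 were 70.0% identical.

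On the RPKM scale, which is per length and so allows levels to be compared between genes, HSD17B4 was the highest of the 9 in each of the 4 libraries, at 88.8 to 108 RPKM. The reductases followed, with SRD5A1 above SRD5A3 in both libraries without AIL and below it in both libraries with AIL. HSD17B11 lay between 1.97 and 4.57 RPKM, and the UGT2B genes between 0 and 3.52 RPKM. With 1 library per condition, it cannot be said which neighbours in this order differ beyond the spread between cultures. Between the highest and the lowest library, the level differed 4.29-fold for UGT2B11, 4.19-fold for UGT2B15, 3.13-fold for SRD5A1, 2.75-fold for UGT2B10 and 2.32-fold for HSD17B11. UGT2B17, SRD5A3 and HSD17B4 varied least, by 1.67-fold, 1.5-fold and 1.22-fold. UGT2B28 was listed at 0 in 2 libraries and has no ratio.

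**Figure D1:**
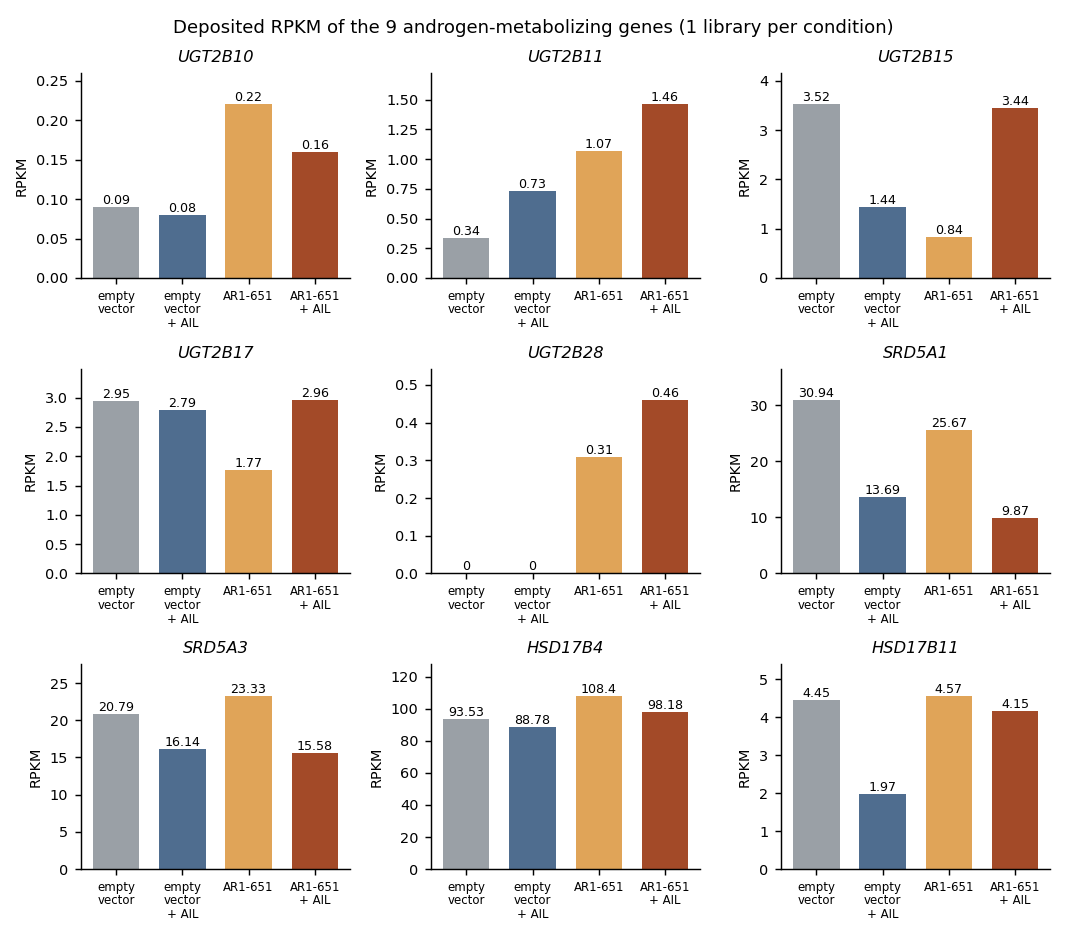
Level of each of the 9 enzymes in each of the 4 libraries, in RPKM, as 1 bar per library from 0, with its own vertical scale in each panel and no error bars because each condition is 1 library. UGT2B15 was lowest in the library labelled AR1-651 (0.84 RPKM), and SRD5A1 was lower in both libraries with AIL (13.7 and 9.87 RPKM) than in both without (30.9 and 25.7 RPKM).

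UGT2B15 and UGT2B17, the glucuronosyltransferases that clear dihydrotestosterone and testosterone, were both lowest in the library labelled AR1-651 by deposited RPKM. UGT2B15 was 3.52 RPKM with the empty vector and 1.44 after AIL, and 0.84 with AR1-651 and 3.44 after AIL. Its level with AR1-651 was thus 4.19-fold below that with the empty vector, a change of -1.30 in log2(RPKM + 1), the scale used for all changes below. AIL went with a lower UGT2B15 level in cells with the empty vector (2.44-fold, change -0.89) and with a higher one in cells with AR1-651 (4.10-fold, change 1.27). Without AIL the AR1-651 library was below the empty vector library, and with AIL it was above (2.39-fold, change 0.86). With a fitted trend of transcript GC content and length removed, the changes of 1.27 and 0.86 became 0.51 and 0.37, and the first no longer reached 2-fold.

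UGT2B17 was 2.95 RPKM with the empty vector and 2.79 after AIL, and 1.77 with AR1-651 and 2.96 after AIL. The level with AR1-651 stood below the other 3, which lay between 2.79 and 2.96 RPKM. The changes of UGT2B17 were -0.51 for AR1-651 against empty vector, -0.06 for AIL with the empty vector and 0.52 for AIL with AR1-651, all under 2-fold. By deposited RPKM, the library labelled AR1-651 was therefore the lowest in both UGT2B15 and UGT2B17. With the GC and length trend removed, the UGT2B17 change for AIL with AR1-651 was -0.27, which put AR1-651 + AIL below AR1-651 for this gene. With AIL in cells with the empty vector, UGT2B15 changed by -0.89, also under 2-fold on this scale, and UGT2B17 by -0.06. Since their reads can be exchanged, the sum was also taken. It was 6.47 RPKM with the empty vector and 4.23 after AIL, and 2.61 with AR1-651 and 6.4 after AIL, with a change of -1.05 for AR1-651 against empty vector and 1.04 for AIL with AR1-651. The sum changed by -0.51 for AIL with the empty vector and by 0.50 for AR1-651 + AIL against empty vector + AIL.

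UGT2B11, UGT2B10 and UGT2B28 were higher in the library labelled AR1-651 than with the empty vector, where UGT2B15 and UGT2B17 were lower, and with AIL all 5 were higher in the library labelled AR1-651 + AIL by deposited RPKM, although the changes of UGT2B11 (-0.04) and UGT2B17 (-0.45) were below 0 there with the trend removed. UGT2B11, for which fatty acid derivatives are better known substrates than androgens, was 0.34 RPKM with the empty vector and 0.73 after AIL, and 1.07 with AR1-651 and 1.46 after AIL. The ratio of AR1-651 to empty vector was 3.15-fold without AIL and 2-fold with AIL, but on the log2(RPKM + 1) scale the changes were 0.63 and 0.51, since the pseudocount of 1 shrinks the change of genes with a low level. UGT2B28, an enzyme that conjugates several androgens, was listed at 0 in both empty vector libraries, at 0.31 RPKM with AR1-651 and at 0.46 RPKM with AR1-651 + AIL. UGT2B10, which acts on amines such as nicotine, was 0.09 and 0.08 RPKM with the empty vector without and with AIL, and 0.22 and 0.16 RPKM with AR1-651 without and with AIL. Neither UGT2B28 nor UGT2B10 reached 1 RPKM in any library. By deposited RPKM, for all 3 genes both libraries labelled AR1-651 lay above both empty vector libraries, at levels where RPKM values rounded to 2 decimals leave few distinct steps.

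By deposited RPKM, the make-up of the UGT2B group therefore differed between the libraries. These shares rest on low levels, on 1 library per condition and on genes that share windows with other genes. The summed level of UGT2B10, UGT2B11 and UGT2B28 was 0.43 RPKM with the empty vector and 0.81 after AIL, and 1.60 with AR1-651 and 2.08 after AIL. Their share of the summed RPKM of all 5 UGT2B genes was 6.23%, 16.1%, 38.0% and 24.5% in the same order. The sum over all 5 was 6.90, 5.04, 4.21 and 8.48 RPKM, lowest in the library labelled AR1-651 and highest in that labelled AR1-651 + AIL. None of the 5 other glucuronosyltransferases analysed reached 1 RPKM, and they summed to at most 0.94 RPKM.

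**Figure D2:**
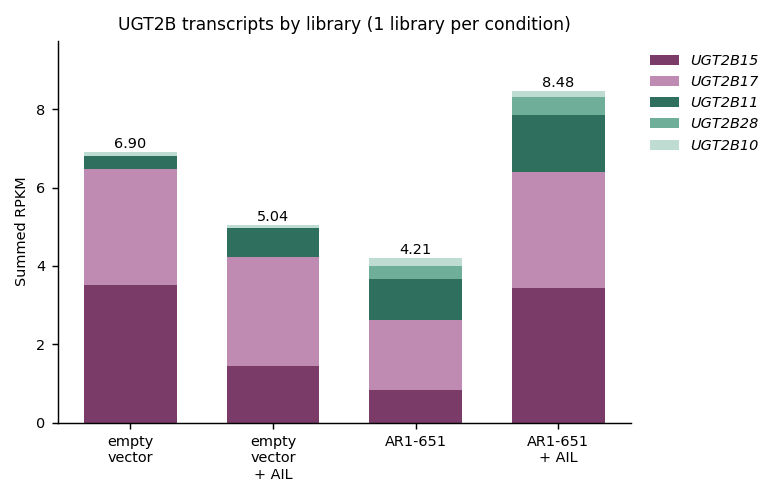
Stacked RPKM of the 5 UGT2B genes in each of the 4 libraries, from 0, with 1 library per bar and no error. UGT2B15 and UGT2B17 made up 93.8% of the sum with the empty vector and 62.0% with AR1-651.

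SRD5A1, which converts testosterone to dihydrotestosterone and is the main such reductase in prostate cancer cells, was lower with AIL in both backgrounds. It was 30.9 RPKM with the empty vector and 13.7 after AIL, and 25.7 with AR1-651 and 9.87 after AIL. Both libraries with AIL lay below both libraries without it. The level with AIL was 2.26-fold lower with the empty vector (change -1.12) and 2.60-fold lower with AR1-651 (change -1.29). With the GC and length trend removed, these changes were -0.98 and -1.78, the first under 2-fold. The pairs share no library, but each condition is 1 library, so the pairs do not stand in for replicates. Without that removal, SRD5A1 was the only one of the 7 enzymes that passed the RPKM filter to be at least 2-fold lower in both. In the whole set of 14626 genes, 428 (2.93%) were at least 2-fold lower with AIL in both. In the ranking of all genes by RPKM, SRD5A1 went from rank 2867 with the empty vector to 5933 with empty vector + AIL, and from 3213 with AR1-651 to 6783 with AR1-651 + AIL.

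SRD5A3, a polyprenol reductase needed for protein N-glycosylation that carries a steroid reductase name, was 20.8 RPKM with the empty vector and 16.1 after AIL, and 23.3 with AR1-651 and 15.6 after AIL. It too was lower in both libraries with AIL, by 1.29-fold and 1.5-fold (changes -0.35 and -0.55), but did not reach 2-fold. The prostate type reductase SRD5A2 was at most 0.08 RPKM. SRD5A1 and SRD5A3 were thus the genes analysed with a steroid reductase name that passed 1 RPKM.

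HSD17B4, a peroxisomal enzyme of fatty acid oxidation that also oxidises testosterone and oestradiol, held the most even level of the 9. It was 93.5 RPKM with the empty vector and 88.8 after AIL, and 108 with AR1-651 and 98.2 after AIL. Its largest change was 0.21, for AR1-651 against empty vector, and it ranked between 850 and 1050 among all genes in the 4 libraries.

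HSD17B11, a lipid droplet enzyme that oxidises androstanediol, was 4.45 RPKM with the empty vector and 1.97 after AIL, and 4.57 with AR1-651 and 4.15 after AIL. By deposited RPKM, a single library, that labelled empty vector + AIL, stood below the other 3. The change with AIL was therefore -0.88 with the empty vector and -0.11 with AR1-651, and the change of AR1-651 + AIL against empty vector + AIL was 0.79. With the GC and length trend removed, these 3 changes were -1.10, -0.78 and 0.34. HSD17B11 was then lower with AIL in both backgrounds, so the pattern of a single low library held only before the trend was removed. The gap of empty vector + AIL to AR1-651 + AIL was then smaller, and its gap to the empty vector was larger. The deposited change of 0.79 was exceeded by 3.16% of all genes. None of the 3 changes reached 2-fold on the log2(RPKM + 1) scale before the trend was removed, and the -1.10 did after it. The RPKM itself was 2.26-fold lower with AIL in empty vector cells.

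The counts over the group can be read against all genes. At least 1 library had to reach an RPKM of 1, which 7 of the 9 enzymes and 14626 of 19801 genes met, and a gene was counted when it differed at least 2-fold on the log2(RPKM + 1) scale. For AR1-651 against empty vector, 0 of the 7 were higher (4.01% of all genes) and 1, UGT2B15, was lower (11.6%). The median of the 7 changes was 0.03, against -0.30 over all genes, of which 67.0% lay below 0. For empty vector + AIL against empty vector, 0 were higher (9.53% of all genes) and 1, SRD5A1, was lower (9.03%), and 6 of the 7 changes lay below 0 (51.0% of all genes), with a median of -0.35 against -0.02. For AR1-651 + AIL against AR1-651, 1 was higher, UGT2B15 (14.9%), and 1 was lower, SRD5A1 (5.74%), with a median of -0.11 against 0.13. For AR1-651 + AIL against empty vector + AIL, 0 were higher (1.46%) and 0 were lower (3.53%), with a median of 0.14 against -0.03. Counts of 0 or 1 among 7 lie near these backgrounds and by themselves show nothing particular to the enzymes. The backgrounds moved with the scaling: after median-ratio scaling, 7.29% of all genes were higher and 5.59% lower for AR1-651 against empty vector, and 10.8% higher and 8.62% lower for AR1-651 + AIL against AR1-651.

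**Figure D3:**
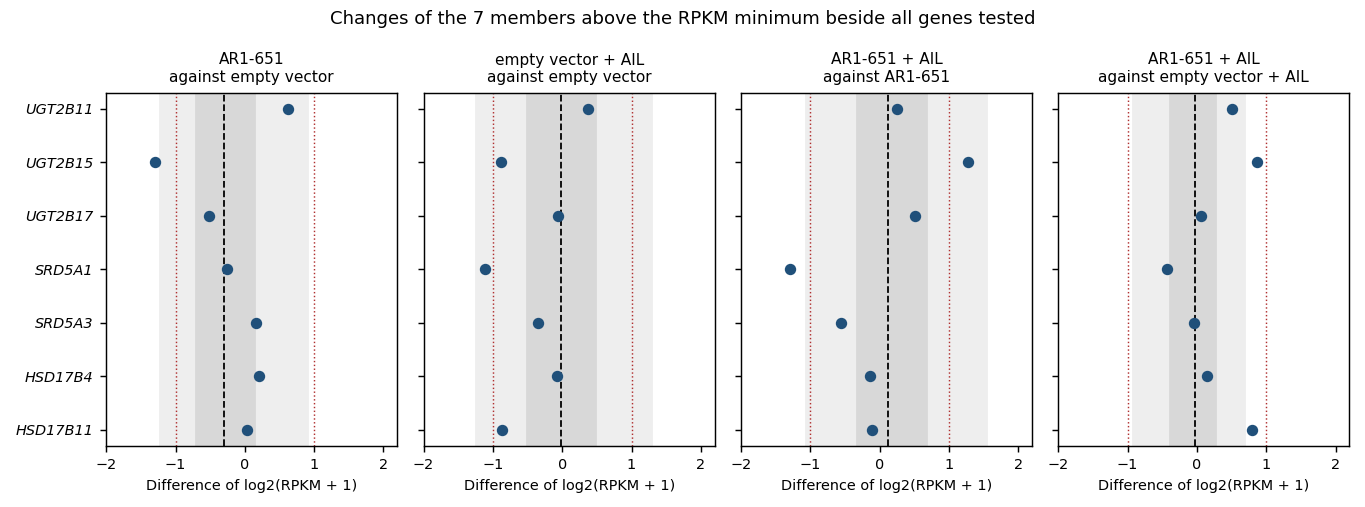
Change in log2(RPKM + 1) of the 7 enzymes that passed the RPKM filter in the 4 comparisons, from 1 library per condition and so without error bars. Over all 14626 genes, dark grey spans the middle 50% and light grey the middle 90%, the dashed line is the median and dotted lines mark 2-fold. UGT2B15 lay at -1.30 for AR1-651 against empty vector and at 1.27 for AR1-651 + AIL against AR1-651, and SRD5A1 at -1.12 and -1.29 with AIL.

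The comparison of AR1-651 with empty vector shares a library with each of the AIL comparisons, so changes in these cannot be read as separate findings, and the opposite signs of UGT2B15 in the AIL pairs are given by library. The AIL change with AR1-651 exceeded that with the empty vector by 2.16 for UGT2B15, a difference that 1.07% of all genes exceeded. The same difference was 0.58 for UGT2B17 and 0.76 for HSD17B11, which 24.6% and 17.6% of genes exceeded. It was between -0.21 and -0.07 for UGT2B11, SRD5A1, SRD5A3 and HSD17B4. For SRD5A1 the AIL changes of -1.12 and -1.29 were thus close to each other, and for UGT2B15 they had opposite signs. These percentages were taken without removal of the GC and length trend. With it removed, the AIL changes of UGT2B15 were -1.08 and 0.51, closer together, and those of SRD5A1 were -0.98 and -1.78, further apart.

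**Figure D4:**
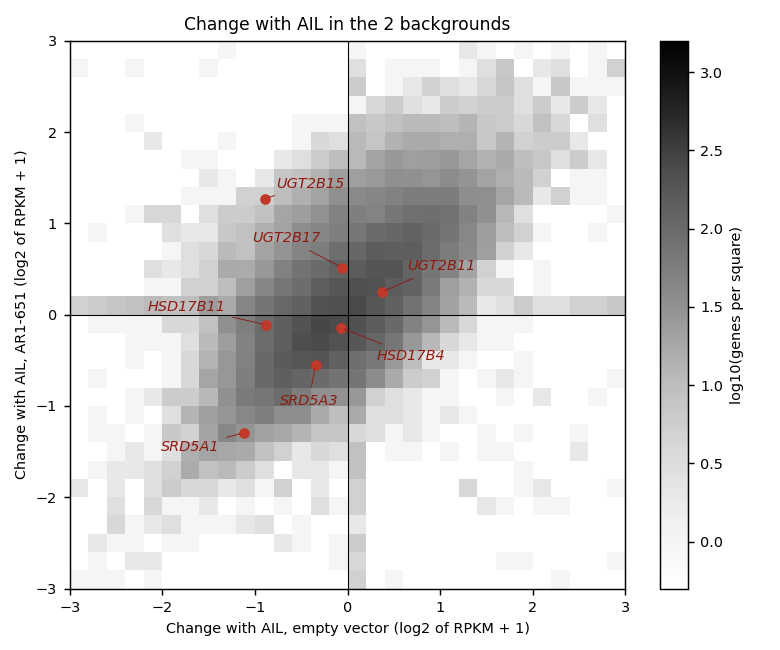
Change with AIL in log2(RPKM + 1) in cells with the empty vector (horizontal) against cells with AR1-651 (vertical), with grey squares shaded by the log10 number of genes and the 7 enzymes in red, 1 library per condition, showing the 14522 genes within 3 on both axes. UGT2B15 lay above 0 on the vertical axis and below 0 on the horizontal one, and SRD5A1 lay below -1 on both.

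The changes of all genes varied with the base composition or length of their transcripts, to an extent that differed between the comparisons. Among the 2334 genes in the lowest sixth of GC content, the median change for AR1-651 + AIL against AR1-651 was 0.71 and 36.8% of genes were at least 2-fold higher, against a median of -0.21 in the highest sixth. Medians of 0.39 in the lowest and -0.50 in the highest GC sixth were found between the libraries with AIL (AR1-651 against empty vector), whereas they were close to each other for AR1-651 against empty vector (-0.39 and -0.47) and for empty vector + AIL against empty vector (-0.01 and -0.07). Both -0.39 and -0.47 lay below the median of -0.30 over all genes, so similar ends do not mean that GC content made no difference there. By length, the shortest and longest sixths had medians of 0.21 and -0.70 for AR1-651 against empty vector. UGT2B11, UGT2B15, UGT2B17 and HSD17B11 lay in the lowest sixth, with GC contents of 37.9%, 39.0%, 38.6% and 40.3%. After the subtraction of the fitted trend, which took the UGT2B15 change with AIL in AR1-651 cells under 2-fold, its change for AR1-651 against empty vector was -1.22. The subtraction also turned the UGT2B17 change with AIL in AR1-651 cells from 0.52 to -0.27, and the UGT2B11 change for AR1-651 + AIL against empty vector + AIL from 0.51 to -0.04. SRD5A1, in the longest sixth of transcripts at 7132 bases, had changes with AIL of -0.98 and -1.78 after the subtraction, and 0.34 in place of -0.26 for AR1-651 against empty vector. The part of base composition in the UGT2B15 result was not tested.

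**Figure D5:**
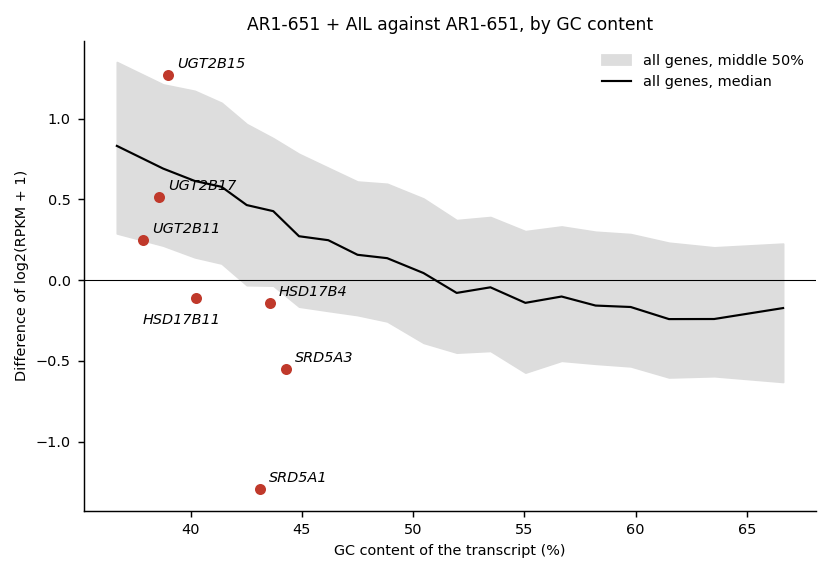
Change with AIL in cells with AR1-651, in log2(RPKM + 1), against transcript GC content in percent, with the median (line) and middle 50% (grey) of all genes in 20 bins of near-equal gene number and the 7 enzymes in red, from 1 library each. UGT2B15 lay above the upper quartile at its GC content, and the other 6 enzymes lay below the median at theirs.

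Other genes of androgen metabolism, from a list of 42 of which 30 were analysed here, mostly differed by less than 2-fold. Of the 16 that passed the RPKM filter, 1 was at least 2-fold higher and 1 lower for AR1-651 against empty vector. The 1 higher was HSD17B14, a dehydrogenase of oestradiol, at 4.83 and 11.02 RPKM (change 1.04), and the 1 lower was SULT2A1, which sulphates dehydroepiandrosterone, at 1.54 and 0.17 RPKM (change -1.12). With AIL in AR1-651 cells HSD17B14 was 4.99 RPKM (change -1.005), the 1 gene of the list at least 2-fold lower there, and in the other 2 comparisons none was higher or lower. UGDH, which makes the sugar donor UDP-glucuronic acid, was 29.4 RPKM with the empty vector and 33.4 after AIL, and 57.7 with AR1-651 and 36.5 after AIL. The higher level of UGDH with AR1-651 (change 0.95) fell short of 2-fold on this scale. In the same library UGT2B15, which uses that donor, was at its lowest. Median changes of the 16 were 0.17, -0.07, -0.34 and 0.12 in the order of the comparisons above.

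By their profile over the 4 libraries, 4 of the 5 genes nearest to UGT2B17 were LSM11, OR7E14P, WDPCP and ZBTB11-AS1, at Euclidean distances of 0.02 to 0.05 between centred log2(RPKM + 1) values. Those nearest to SRD5A1 were BSCL2, SLC35H1, B4GAT1, SPON2 and ARSD, at 0.03 to 0.10. Those nearest to HSD17B4 were GSTM3, GART, F8, PAFAH2 and TOP1MT, at 0.04 to 0.05.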

How the data were processed

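RNA from LNCaP cells was sequenced as 4 libraries, 1 per condition, and groups were taken from the GEO labels. The authors deposited RPKM values per gene, rounded to 2 decimals, and no counts, so the depth is unknown and no counting interval was given. The submitters' processing notes name BWA 0.7.10-r789 and hg19 without their roles; the files pair each gene with RefSeq transcript identifiers, and the counting tool and annotation release are not given in the sources used here. RPKM is scaled to mapped reads and transcript length, so genes that take more reads lower the values of others.

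Changes are differences of log2(RPKM + 1), with genes kept that reached an RPKM of 1 in any library and counted from 2-fold. No test was possible. Python 3.11.15, pandas 2.3.3, NumPy 2.4.6, Biopython 1.88 and Matplotlib 3.10.9 were used, and the code was tested on simulated data. Promoters came from RefSeq (GRCh38.p14) and transcripts, with GC content and length (known for 95.8% of genes passing the filter), from GENCODE release 29; no coordinate was converted. The planned protein comparison was replaced by coding sequences. The alternatives tried were median-ratio scaling, a pseudocount of 0.1, a 1.5-fold threshold, RPKM of at least 5, no filter, and subtraction of a fitted GC and length trend; sums of close UGT2B copies and the alternatives for the other androgen metabolism genes were added after seeing the data. The text names the 9 enzymes, listed androgen metabolism genes that passed the filter, marker and androgen-induced genes, and the 5 genes nearest in profile to UGT2B17, SRD5A1 and HSD17B4; SRD5A2 was named after its values were seen, and some genes of this rule are not reported here. The genes and lists were chosen with earlier results of these data known.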

Additional observations from a re-analysis of the deposited data

Results flagged for a closer look

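In 3 enzymes a change went in opposite directions in the conditions compared, and none of these differences was tested, since each condition is 1 library. UGT2B15 was lower with AIL in empty vector cells and higher with AIL in the library pair labelled AR1-651, and the changes in log2(RPKM + 1) differed by 2.16. With the GC and length trend removed they were -1.08 and 0.51, closer together but still of opposite sign. UGT2B17 also went from lower to higher, with changes that differed by 0.58, from -0.06 to 0.52. With the trend removed both UGT2B17 changes were below 0 (-0.24 and -0.27). SRD5A3 was slightly higher with AR1-651 than with the empty vector without AIL (0.16) and slightly lower with AIL (-0.05), a difference of -0.21, but with median-ratio scaling neither change was below 0 (0.42 and 0.0058).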

How the results depend on the processing

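No paired analysis was possible because each condition has 1 library and the labels carry no replicate numbers, and for the same reason no library could be left out. Of 100 recomputed changes of single enzymes, 37 moved by at least 0.2 in log2 and 7 changed sign, none of them a change of at least 2-fold. A pseudocount of 0.1 and a 1.5-fold threshold gave the same counts of enzymes: 1 higher for AR1-651 against empty vector (UGT2B11; 5.26% and 10.7%), 3 lower for empty vector + AIL against empty vector (UGT2B15, SRD5A1 and HSD17B11; 14.6% and 22.1% of all genes in the same order of settings), and 2 higher for AR1-651 + AIL against empty vector + AIL (UGT2B15 and HSD17B11; 3.48% and 7.73%). An RPKM minimum of 5 left 3 enzymes, so 0 were lower for AR1-651 against empty vector and 0 higher for AR1-651 + AIL against AR1-651. With the GC and length trend removed, 2 were lower for empty vector + AIL against empty vector (UGT2B15 and HSD17B11, SRD5A1 being at -0.98; 8.43% of all genes) and 0 were higher for AR1-651 + AIL against AR1-651 (8.30%), and the medians of the 7 changes were 0.28 for AR1-651 against empty vector, -0.60 for AR1-651 + AIL against AR1-651 and -0.056 for AR1-651 + AIL against empty vector + AIL. Median-ratio scaling moved the median of all genes by 0.22 for AR1-651 against empty vector and by -0.15 for AR1-651 + AIL against AR1-651; the median of the 7 enzymes was then 0.25 in the first. The split of all genes for AR1-651 against empty vector went from 586 higher and 1701 lower to 1066 higher and 817 lower with this scaling, and to 657 and 523 with the trend removed. Of the 16 other androgen metabolism genes, 2 were at least 2-fold higher or lower for AR1-651 against empty vector, and 4 with the pseudocount of 0.1, 5 with median-ratio scaling, 1 at RPKM of at least 5 and 8 at 1.5-fold; for empty vector + AIL against empty vector 0 became 3 with the pseudocount, 5 at 1.5-fold and 2 with the trend removed; for AR1-651 + AIL against AR1-651 1 became 5, 8 and 3; and for AR1-651 + AIL against empty vector + AIL 0 became 3 with the pseudocount and 3 at 1.5-fold. At 1.5-fold, in the same order of comparisons, 10.7%, 20.9%, 28.6% and 7.73% of all genes were higher. Those lower were 32.3%, 22.1%, 14.7% and 15.5%. With the pseudocount of 0.1, 5.26%, 12.4%, 20.6% and 3.48% were higher and 20.8%, 14.6%, 9.10% and 7.93% lower. With the trend removed, 9.23% and 8.30% were higher in the AIL pairs, and 8.43% and 7.52% lower. Median-ratio scaling gave 7.29% higher and 5.59% lower for AR1-651 against empty vector. The cause of these shifts was not tested.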
